A study of Sus scrofa with 11 samples.

Results

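The genes described here encode parts of the contractile machinery that is typical of slow muscle fibres, together with a pair of proteins of the Z-disc. They are the troponin genes TNNT1 (ENSSSCG00000025353), TNNI1 (ENSSSCG00000024061) and TNNC1 (ENSSSCG00000011441), the light chain gene MYL3 (ENSSSCG00000011325), the myosin-binding protein gene MYBPC1 (ENSSSCG00000000866) and the Z-disc genes ANKRD2 (ENSSSCG00000010522) and CSRP3 (ENSSSCG00000013354). They were chosen by their symbols, all 7 had 1 pig Ensembl ID among the 25322 IDs of the gene table, and all 7 were among the 11329 genes that passed the filter on low counts. The tissue was longissimus lumborum, a back muscle rich in fast fibres, and its RNA was sequenced in 11 female pigs at an age of 23 weeks. In the 7 fibre1 pigs type I fibres (slow and oxidative) exceeded 17% and type IIB fibres (fast and glycolytic) stayed under 70% of the fibres on histology of the same muscle. In the 4 fibre2B pigs type I fibres were under 8% and type IIB fibres over 70%. The fibre percentages of single pigs and the breed are not given in the sources used here, and the labels name no treatment.

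Troponin is the calcium switch of the thin filament. Troponin C binds calcium, troponin I holds back the interaction of actin with myosin, and troponin T anchors the complex to tropomyosin. Slow and fast fibres use different genes for each subunit, and TNNC1 and MYL3 also serve the heart. MYBPC1 encodes the slow form of a protein that sits on the thick filament. ANKRD2 and CSRP3 encode an ankyrin repeat protein and the muscle LIM protein, which have been linked to the sensing of stretch.

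All 7 genes had higher mean levels in fibre1 than in fibre2B, with log2 fold changes of 0.76 to 1.15 and a median of 0.95, beside a median of 0.0073 over all 11329 genes tested. By edgeR's quasi-likelihood test with Benjamini-Hochberg adjustment over all genes, 0 of the 7 passed an adjusted p of 0.05, where 4.38% of all genes tested passed with a higher level in fibre1, 4.63% with a higher level in fibre2B and 9.01% in either direction. Values above 0 were found for 50.7% of all genes. The groups overlapped in all 7, where 3.4% of all genes did not overlap and were higher in fibre1 and 7.55% did not overlap in either direction. At an unadjusted p under 0.05 there were 4 of the 7 (TNNT1, TNNI1, MYBPC1 and ANKRD2), where 14.2% of all genes were past that p and higher in fibre1 and 28.9% were past it in either direction. DESeq2 called 1 of the 7 (TNNT1), where it called 8.01% of all genes as higher in fibre1. In DESeq2 refits added later 0 of the 7 were called without fibre1 pig 1 (TNNT1 adjusted p = 0.070) or without fibre2B pig 14 (0.137). With 1 surrogate variable edgeR called 2 (TNNT1 and TNNI1), where it called 6.97%, and limma-voom called 0 with or without quality weights. In bulk muscle, fewer slow fibres and less of a transcript in each fibre cannot be told apart.

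Levels are given as CPM, counts scaled to library size with TMM factors, and no gene is compared with another by its CPM because transcript lengths were not used. TNNT1, the slow troponin T, had 2623 CPM in the lowest fibre1 pig, a median of 2762 CPM and 8674 CPM in the highest, against 2688 CPM in fibre2B pig 10, 1374 in pig 11, 749 in pig 14 and 2218 in pig 16. Apart from pig 1, which stood alone above them, the fibre1 pigs lay close together at 2623 to 3408 CPM. The groups overlapped through fibre2B pig 10, which exceeded 3 of the fibre1 pigs. The log2 fold change was 1.06 ± 0.41 (SE; 95% interval 0.18 to 1.94, not adjusted for the number of genes), with an adjusted p of 0.107.

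TNNI1, the slow troponin I, showed much the same picture. Its CPM was 1598 in the lowest, 1786 in the median and 5998 in the highest fibre1 pig, against 1717 in fibre2B pig 10, 789 in pig 11, 391 in pig 14 and 1383 in pig 16. Fibre1 pig 1 was again the highest by a wide margin, and fibre2B pig 10 again lay within the range of fibre1. Its log2 fold change was 1.15 ± 0.45 (95% interval 0.18 to 2.12, adjusted p = 0.112).

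TNNC1, the troponin C shared by slow fibres and the heart, overlapped more. Its CPM was 1884 in the lowest, 2426 in the median and 8130 in the highest fibre1 pig, against 3431 in fibre2B pig 10, 1156 in pig 11, 945 in pig 14 and 2234 in pig 16. Only fibre1 pig 1 exceeded fibre2B pig 10 in this gene. The log2 fold change of 0.76 ± 0.44 had a 95% interval that included 0 (-0.20 to 1.71, adjusted p = 0.277). It was 0.35 without fibre1 pig 1 and 1.18 without fibre2B pig 10.

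**Figure D1:**
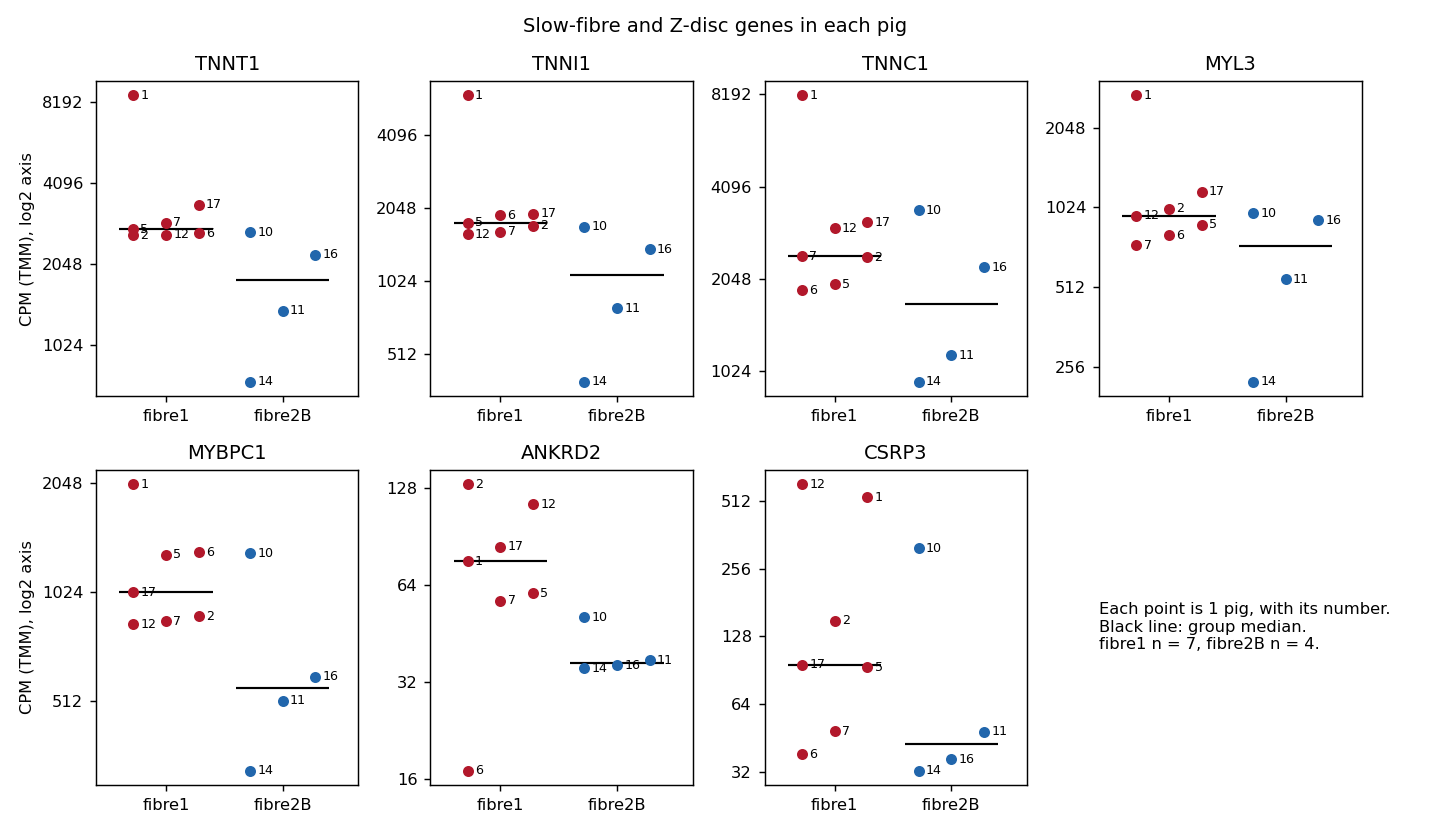
Level of each of the 7 genes in each pig (CPM on a log2 axis), fibre1 on the left and fibre2B on the right, with pig numbers beside the points and a black line at the group median. Fibre1 pig 1 is the highest pig in 5 panels, fibre2B pig 14 is the lowest in 6, and fibre2B pig 10 lies within the range of fibre1 in all 7.

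MYL3 encodes the essential light chain of slow and ventricular myosin. It had 738 CPM in the lowest, 954 CPM in the median and 2714 CPM in the highest fibre1 pig, against 973 CPM in fibre2B pig 10, 549 in pig 11, 225 in pig 14 and 915 in pig 16. Fibre2B pigs 10 and 16 lay among the fibre1 pigs and the other fibre2B pigs below them. For MYL3 the log2 fold change was 0.83 ± 0.42 (95% interval -0.071 to 1.73, adjusted p = 0.207). It was 0.48 without fibre1 pig 1 and 1.07 without fibre2B pig 10.

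MYBPC1 had the smallest relative spread in fibre1 of the 7 genes, with an SD of 36.5% of the mean, against 62.6% in fibre2B. Its CPM was 835 in the lowest, 1022 in the median and 2036 in the highest fibre1 pig, against 1311 in fibre2B pig 10, 513 in pig 11, 329 in pig 14 and 599 in pig 16. All fibre1 pigs exceeded fibre2B pigs 11, 14 and 16, while fibre2B pig 10 ranked among the highest pigs of the study. The log2 fold change was 0.77 ± 0.35 (95% interval 0.019 to 1.53, adjusted p = 0.164). With single pigs left out it was 0.55 at the lowest, without fibre2B pig 14 (edgeR adjusted p = 0.377), 0.59 without fibre1 pig 1 (adjusted p = 0.259) and 1.29 at the highest, without fibre2B pig 10. It passed in the last of these alone (adjusted p = 0.049), where 1.32% of all genes were called as higher in fibre1.

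ANKRD2, which binds to titin and the Z-disc region, gave a different order of pigs. It had 131.5 CPM in fibre1 pig 2, the highest, 113.8 in pig 12, 84.1 in pig 17, 75.9 in pig 1, 60.2 in pig 5, 57.1 in pig 7 and 17.0 in pig 6, against 50.9 CPM in fibre2B pig 10, 37.4 in pig 11, 35.3 in pig 14 and 36.1 in pig 16. The fibre1 pigs other than pig 6 exceeded every fibre2B pig, and fibre1 pig 6 was the lowest of all 11. The log2 fold change was 0.95 ± 0.39 (95% interval 0.12 to 1.79, adjusted p = 0.126), and with single pigs left out it was 0.77 to 1.12. The lowest value came without fibre1 pig 2, the highest ANKRD2 pig (edgeR adjusted p = 0.208). The highest came without fibre1 pig 6, the lowest ANKRD2 pig, and passed there alone (adjusted p = 0.035), where 2.06% of all genes were called as higher in fibre1.

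CSRP3, the muscle LIM protein, varied most among pigs of the same group. It had 608.7 CPM in fibre1 pig 12, 532 in pig 1, 150.2 in pig 2, 95.7 in pig 17, 93.7 in pig 5, 48.6 in pig 7 and 38.3 in pig 6, against 316 CPM in fibre2B pig 10, 48.4 in pig 11, 32.5 in pig 14 and 36.5 in pig 16. The highest fibre1 pig was 15.9 times the lowest, and 3 pigs, 1 of them fibre2B, stood above the rest. The log2 fold change of 1.05 ± 0.85 had the widest 95% interval of the 7 genes (-0.79 to 2.88, adjusted p = 0.438). It was 2.52 without fibre2B pig 10 (adjusted p = 0.110) and 0.56 without fibre1 pig 12 (adjusted p = 0.657).

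Fibre1 pig 12 also had the highest levels of TNNT2, the cardiac troponin T gene, and ACTC1, the cardiac actin gene. TNNT2 had 273.7 CPM in that pig, against 4.55 to 40.9 in the other fibre1 pigs and 8.23 to 14.9 in fibre2B, and ACTC1 had 278 CPM there, against 16.6 to 75.6 in the other fibre1 pigs and 18.8 to 31.5 in fibre2B. That pig was also the highest for MYH3, an embryonic myosin gene, and for MYBPH. MYH3 had 253.2 CPM there, against 23.0 to 143.5 in the other fibre1 pigs and 51.3 to 77.4 in fibre2B. MYBPH had 1210 CPM there, against 237 to 874 in the other fibre1 pigs and 352 to 590 in fibre2B. Fibre1 pig 1, with the second-highest CSRP3, had the lowest TNNT2. Of 6 listed heart muscle markers 3 had an ID and 1, TNNT2, was tested, while NPPB was at 0 in every pig. The summed level was 4.69 to 273.6 CPM in fibre1 and 8.28 to 14.9 CPM in fibre2B, nearly all of it TNNT2. The part of these genes in the level of CSRP3 was not tested.

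Single pigs changed the size of these differences, to a degree that varied by gene. Fibre1 pig 1 was the highest pig for 5 of the 7 genes (the 3 troponins, MYL3 and MYBPC1), and fibre2B pig 14 was the lowest for 6 (all but ANKRD2). Without fibre1 pig 1 the log2 fold changes ran from 0.35 to 0.95, without fibre2B pig 14 from 0.54 to 0.90, and without both from 0.13 to 0.91, an alternative chosen after seeing the data. ANKRD2 changed little in these fits (0.954, 0.904 and 0.907 in that order, against 0.951 with all pigs). All 7 stayed above 0 in each of these fits and 0 were called. Without fibre2B pig 10 the log2 fold changes ran from 1.07 to 2.52 and 1 gene was called (MYBPC1), where 1.32% of all genes were called as higher in fibre1. The number at an unadjusted p under 0.05 was 7 without fibre2B pig 10, 0 without fibre2B pig 11 and 0 without fibre2B pig 14, where 12%, 13.9% and 10.6% of all genes, in that order, were past that p and higher in fibre1. Two-sided exact permutation tests of mean log2 CPM over all 330 splits, 1 for each of the 7 genes and not adjusted, gave p of 0.012 for TNNT1, 0.0091 for TNNI1, 0.039 for MYBPC1, 0.082 for MYL3, 0.161 for ANKRD2, 0.164 for TNNC1 and 0.309 for CSRP3, where the smallest possible p is 0.0030.

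**Figure D2:**
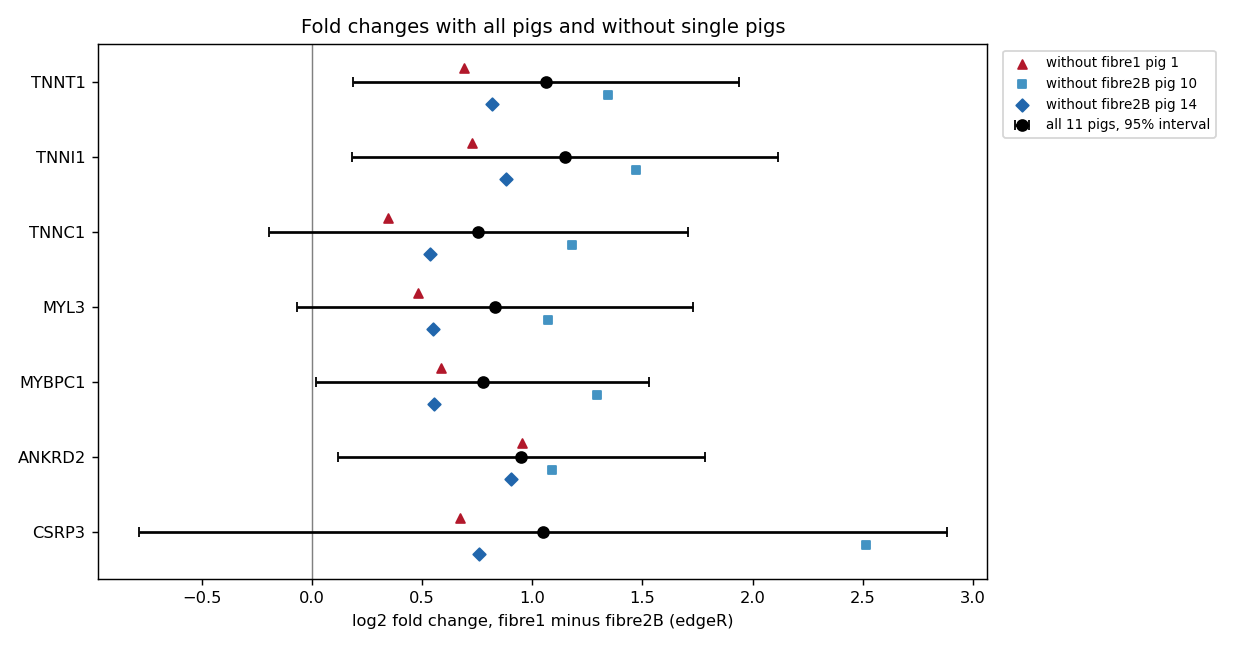
Log2 fold change of each gene, fibre1 minus fibre2B, from edgeR. Black circles with bars are all 11 pigs with the 95% interval, red triangles leave out fibre1 pig 1, light blue squares leave out fibre2B pig 10 and dark blue diamonds leave out fibre2B pig 14. All points lie above 0, and CSRP3 moves from 1.05 with all pigs to 2.52 without fibre2B pig 10.

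The ID listed as MYH6, a cardiac myosin gene nearly identical to the one of slow fibres, had the same extremes, with 16410 CPM in fibre1 pig 1 and 370 CPM in fibre2B pig 14. Fibre1 pigs 5 and 6 differed from the others in composition, as the 10 most abundant nuclear genes took 45.2% and 44.1% of their counts, against 29.5% to 36.8% in the other fibre1 pigs and 31.8% to 36.1% in fibre2B. Without those pigs the log2 fold changes of the 7 genes were 0.71 to 1.41. Total counts were 18369053 to 36374829 in fibre1 and 14832736 to 22145667 in fibre2B, and fibre2B pig 14 had the lowest total. The 7 genes together took 0.635% to 2.90% of the counts in fibre1 and 0.321% to 1.03% in fibre2B.

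TNNT1 was the only one of the 7 to which more than 1 listed isoform was joined, and isoforms that are not listed could not be seen. The isoform table held 2 isoforms whose counts summed to those of TNNT1 within 1 count in each pig, and 1 isoform for each of the other 6 genes. The first (ENSSSCT00000023274) had 1190 CPM in the lowest, 1446 in the median and 2517 in the highest fibre1 pig, against 836 CPM in fibre2B pig 10, 1055 in pig 11, 243 in pig 14 and 1260 in pig 16. The second (ENSSSCT00000026662) had 1242, 1335 and 6064 CPM at the same positions in fibre1, against 1853 CPM in fibre2B pig 10, 303 in pig 11, 509 in pig 14 and 966 in pig 16.

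In the estimated counts the excess of fibre1 pig 1 lay mostly on the second isoform. The other 6 fibre1 pigs had at most 1812 CPM there. The isoform counts are estimates from single-end reads of 50 cycles. How reads common to the isoforms were divided could not be checked, so the error of the isoform levels and shares is not known. The second isoform held 45.6% to 56.4% of the TNNT1 counts in 6 fibre1 pigs and 70.7% in pig 1, against 68.9% in fibre2B pig 10, 22.3% in pig 11, 67.7% in pig 14 and 43.4% in pig 16. The share varied more within fibre2B (50.6 ± 22.2%, SD, n = 4) than within fibre1 (53.0 ± 8.66%, n = 7), and the group means lay within that spread. The log2 fold changes were 0.89 ± 0.36 for the first isoform (edgeR adjusted p = 0.139 over 12212 isoforms tested) and 1.202 ± 0.57 for the second (adjusted p = 0.205). Of the 8 isoforms of the 7 genes 0 were called, where 2.78% of all isoforms tested were called as higher in fibre1 and 5.39% in either direction. At an unadjusted p under 0.05 there were 3 of the 8, namely the first TNNT1 isoform and those of TNNI1 and ANKRD2, where 12.9% of all isoforms were past that p and higher in fibre1. No other tool was run on isoforms. Without fibre1 pig 6 there was 1 call, that of the ANKRD2 isoform (edgeR adjusted p = 0.049), where 1.02% of all isoforms were called as higher in fibre1.

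**Figure D3:**
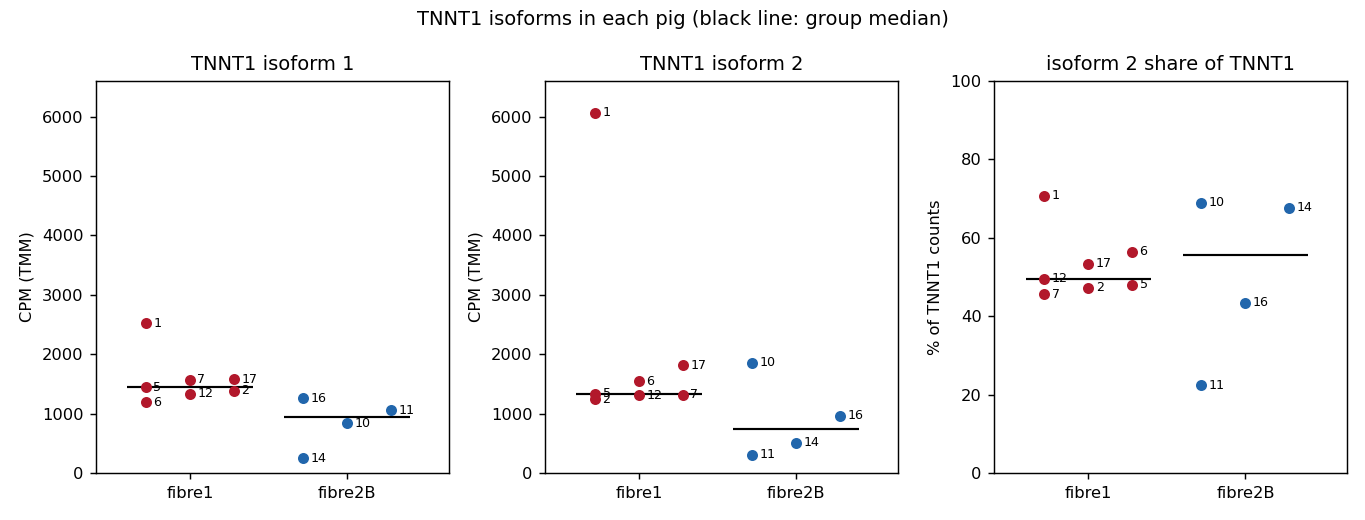
CPM of the first and second TNNT1 isoform in each pig, and the second isoform's percentage of the TNNT1 counts, with pig numbers and a black line at the group median. By estimated counts, fibre1 pig 1 is near 6064 CPM on the second isoform, and the fibre2B shares run from 22.3% to 68.9%.

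Each slow gene was also set against the fast gene of the same family in the same library, a share that needs no scaling between pigs. Of 5 planned pairs 3 had both IDs. TNNC1 made up 7.30 ± 5.94% of the counts of TNNC1 plus TNNC2, the fast troponin C, in the 7 fibre1 pigs, against 5.18 ± 3.15% in the 4 fibre2B pigs (SD). MYBPC1 made up 14.2 ± 6.64% of MYBPC1 plus MYBPC2 in fibre1 and 12.8 ± 6.73% in fibre2B. MYL3 made up 5.40 ± 4.29% of MYL3 plus MYL1, the fast essential light chain, in fibre1 and 2.65 ± 1.28% in fibre2B.

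None of the 3 shares differed beyond the spread between pigs. The differences were 2.12 percentage points for TNNC1 (two-sided exact permutation p = 0.658), 1.38 for MYBPC1 (p = 0.733) and 2.75 for MYL3 (p = 0.264), each with a p of 0.733 when adjusted over the 3 pairs. For TNNC1 the fibre1 pigs had 2.67% at the lowest, 6.41% at the median and 20.1% at the highest, against 9.01% in fibre2B pig 10, 2.93% in pig 11, 2.30% in pig 14 and 6.49% in pig 16. For MYL3 they had 2.86%, 3.96% and 14.98%, against 3.78%, 2.42%, 0.937% and 3.47% in the same 4 fibre2B pigs. The highest fibre1 value was that of pig 1 in each pair. Without that pig the difference was -0.0062 points for TNNC1, -0.81 for MYBPC1 and 1.15 for MYL3 (exact adjusted p of 0.329 to 1).

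The fast partners did not pass the gene test either. TNNC2 had a log2 fold change of 0.38 ± 0.25 (adjusted p = 0.338), MYBPC2 of 0.82 ± 0.33 (adjusted p = 0.119) and MYL1 of -0.079 ± 0.21 (adjusted p = 0.826). MYBPC2 reached 13140 CPM in fibre1 pig 5 and 13184 in pig 6, the pigs with the largest share of counts on abundant genes, against 3674 to 7515 CPM in the other fibre1 pigs and 3558 to 5588 CPM in fibre2B.

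**Figure D4:**
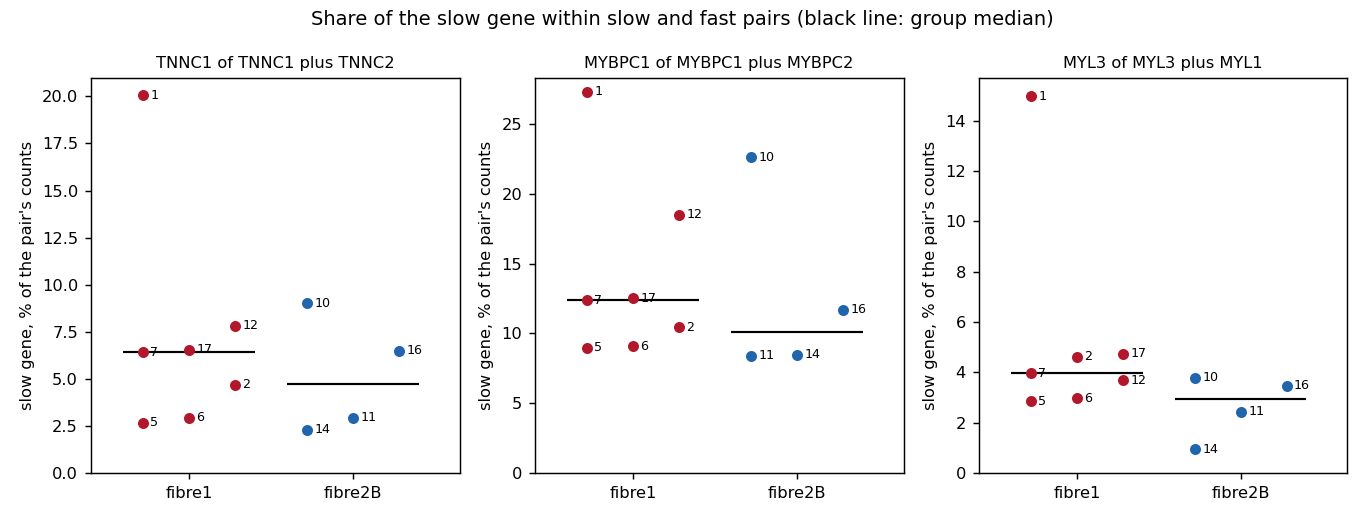
Share of the slow gene in the counts of each slow and fast pair (%), by pig, with a black line at the group median. Fibre1 pig 1 is highest in all 3 panels at 20.1%, 27.3% and 14.98%, and the remaining pigs of both groups overlap.

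Correlations across the 11 pigs were computed on log2 CPM for all 21 pairs of the 7 genes. The 3 troponins, MYL3 and MYBPC1 varied together, with Pearson r of 0.81 to 0.99 in their 10 pairs and Spearman rho of 0.57 to 0.91. All 10 had a permutation p under 0.05 for r after Benjamini-Hochberg adjustment over the 21 pairs (0.000105 to 0.0065), and 6 of 10 did for rho. How often pairs of other genes pass in these libraries was not computed, so these counts have no background beside them. By Pearson r the closest pair was TNNT1 and TNNI1 (r = 0.99, permutation p = 1e-05, the smallest that 100000 resamples can give, adjusted p = 0.000105; rho = 0.84, permutation p = 0.0023, adjusted p = 0.016). By rho it was TNNI1 and MYBPC1 (rho = 0.91, permutation p = 0.00026, adjusted p = 0.0055; r = 0.92, permutation p = 1e-05, adjusted p = 0.000105).

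These correlations rested in part on the extreme pigs. When fibre1 pig 1 and fibre2B pig 14 were left out, the pigs farthest from the median of the first gene of each of these pairs, r was 0.48 to 0.96, with 0.96 for TNNT1 and TNNI1 and 0.48 for TNNC1 and MYBPC1. Within the 7 fibre1 pigs r of the same 10 pairs was 0.59 to 0.98, but 0 of 21 pairs passed after adjustment (exact permutation adjusted p of 0.122 to 0.264 for the 10 pairs). Without the 2 fibre1 pigs farthest from the median (pig 1 with pig 7, 12 or 17), which leaves 5 pigs, these r ran from -0.91 for TNNC1 and MYBPC1 to 0.63 for TNNI1 and MYBPC1. Within fibre1 most of these relations thus rested on the pigs left out, and pig 1 was not left out alone there. The 4 fibre2B pigs are too few for a correlation of their own. On deviations from the group means r of the 10 pairs was 0.75 to 0.99.

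The 11 pairs with a Z-disc gene gave a mixed picture. ANKRD2 had r of 0.21 to 0.49 with the troponins, MYL3 and MYBPC1 and 0 of these 5 pairs passed for r (adjusted permutation p of 0.157 to 0.541), while its rho with MYL3 passed (rho = 0.69, permutation p = 0.023, adjusted p = 0.048). CSRP3 had r of 0.59 to 0.77 with the same 5 genes, and its pairs with TNNC1 (r = 0.77, permutation p = 0.0026, adjusted p = 0.0054; rho = 0.82, permutation p = 0.0031, adjusted p = 0.016) and MYL3 (r = 0.66, permutation p = 0.014, adjusted p = 0.025; rho = 0.75, permutation p = 0.0098, adjusted p = 0.029) passed. Without the 2 farthest pigs these r were 0.63 and 0.48, and without fibre1 pig 1 alone neither passed (r = 0.67, permutation adjusted p = 0.057, and r = 0.51, adjusted p = 0.192). The pair of MYL3 and CSRP3 also did not pass on deviations from the group means (r = 0.60, permutation adjusted p = 0.106). ANKRD2 and CSRP3 had r = 0.68 (permutation p = 0.020, adjusted p = 0.033) and rho = 0.81 (permutation p = 0.0042, adjusted p = 0.018), and r was 0.76 without fibre1 pigs 2 and 6. That pair did not pass without fibre1 pig 12 (r = 0.60, permutation adjusted p = 0.086), without fibre1 pigs 5 and 6 (adjusted p = 0.070) or without fibre2B pig 11, 14 or 16 (adjusted p of 0.055 to 0.060). Whether the r of a Z-disc gene differs from that of a troponin was not tested.

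**Figure D5:**
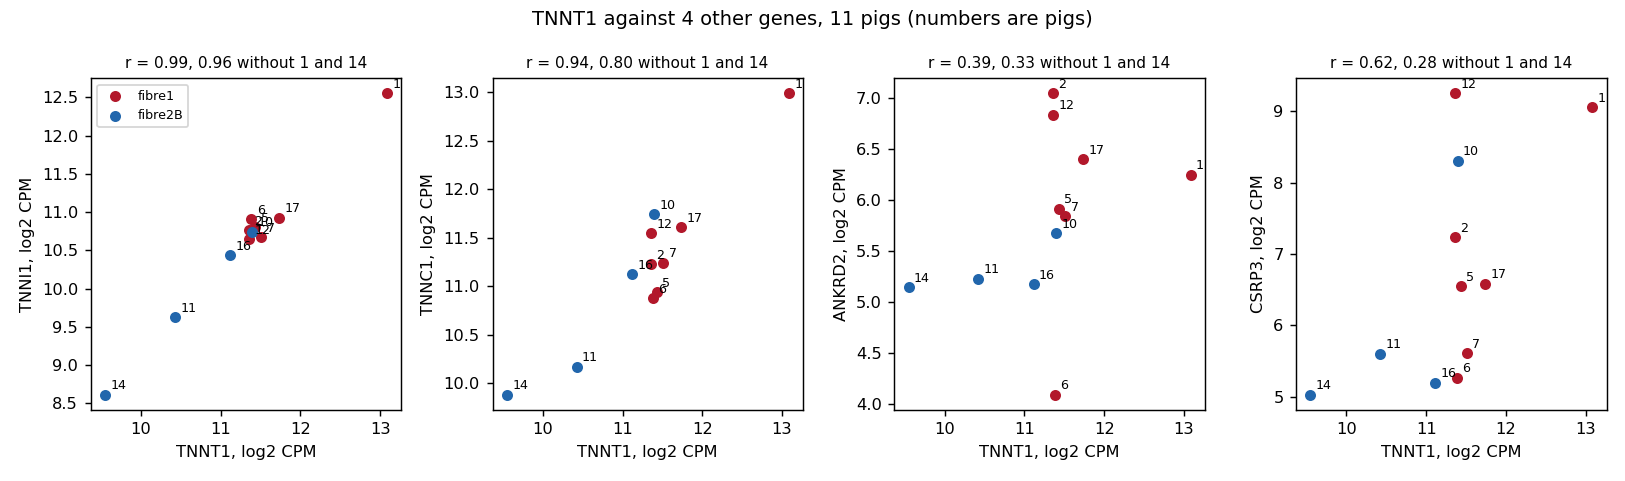
TNNI1, TNNC1, ANKRD2 and CSRP3 against TNNT1 in the 11 pigs (log2 CPM on both axes), fibre1 in red and fibre2B in blue, with pig numbers. TNNI1 follows TNNT1 closely (r = 0.99), while ANKRD2 is spread widely among pigs with similar TNNT1 (r = 0.39).

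The search for genes alike in pattern covered 4562 named genes of 5 CPM or more on average. Those whose log2 CPM followed the mean z-score of the 7 genes most closely over the 11 pigs were ME3, the mitochondrial malic enzyme (r = 0.98), SLC25A12, a mitochondrial carrier of aspartate and glutamate (0.93), THNSL2 (0.92), LMCD1, a LIM domain protein (0.92), ESRRA, an orphan nuclear receptor (0.92), NDRG2 (0.91), OAZ2 (0.90) and CDK2AP1 (0.90). Of these 8, ESRRA was called (90.5 ± 15.4 CPM in fibre1 and 57.5 ± 11.97 CPM in fibre2B, log2 fold change 0.65 ± 0.16, edgeR adjusted p = 0.032), while ME3 averaged 10.4 ± 2.78 CPM in fibre1, against 7.37 ± 2.66 CPM in fibre2B (log2 fold change 0.50 ± 0.24, adjusted p = 0.191). On deviations from the group means 4 of the 8 (ME3, SLC25A12, THNSL2 and ESRRA) were again among the 8 most alike. These r share the same libraries and the same extreme pigs. Over all genes tested edgeR called 4.38% as higher in fibre1. The 8 genes were picked for following 7 genes that all had higher means in fibre1. That percentage is therefore not a like-for-like background for the call of ESRRA. The call was lost without fibre2B pig 14, where edgeR called 0 genes of all those tested.

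Other genes of the sarcomere were listed to place the 7 genes. Over all 11329 genes tested 4.38% were called as higher in fibre1 and 4.63% as higher in fibre2B. The median log2 fold change over all genes was 0.0073, and 28.9% had an unadjusted p under 0.05 by edgeR. Of 16 other slow-fibre contractile and calcium genes 6 had an ID and were tested, 1 was higher in fibre1 (the ID listed as MYH6, log2 fold change 2.29 ± 0.59) and 0 lower, with a median of 0.61. MYH7B had 0.83 ± 0.39 (adjusted p = 0.172) and ACTN2, the Z-disc alpha-actinin of all fibre types, 0.74 ± 0.35 (adjusted p = 0.183). The ID listed as MYH6 may hold reads of related myosin genes. Of 15 fast-fibre genes 8 were tested, 0 passed in either direction (2 had an unadjusted p under 0.05), and their median was 0.37. In that list ATP2A1, the fast calcium pump, had 0.75 ± 0.34 (adjusted p = 0.165) and CASQ1, a calcium store protein, 0.45 ± 0.24 (adjusted p = 0.217).

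Of 27 Z-disc, titin-linked and stretch-sensing genes 19 were tested, 1 was higher in fibre1 and 0 lower, with a median of 0.40. The 1 of 19 is near the 4.38% of all genes tested that were called as higher in fibre1. The called gene was ANKRD23, of the same ankyrin repeat family as ANKRD2, with 505 ± 164 CPM in fibre1 and 301 ± 27.7 CPM in fibre2B (log2 fold change 0.75 ± 0.22, edgeR adjusted p = 0.0496). SYNPO2L had 0.85 ± 0.26 (adjusted p = 0.057) and NRAP 1.07 ± 0.34 (adjusted p = 0.062). ANKRD1, the remaining gene of that family, had a log2 fold change of 0.46 ± 0.63 (edgeR adjusted p = 0.655). It had 54.5 CPM in fibre1 pig 1, the lowest of the 11, where TNNT1 and TNNI1 were highest. The other fibre1 pigs had 232 to 1258 CPM and the fibre2B pigs 171 to 799 CPM. The correlation of ANKRD1 with the 7 genes was not computed.

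Of 14 filament genes shared by slow and fast fibres 10 were tested and 0 passed (3 had an unadjusted p under 0.05), although all 10 had values above 0, with a median of 0.45. Over all genes tested 28.9% had an unadjusted p under 0.05 by edgeR and 50.7% had values above 0. Those with the smallest p were the M-band genes MYOM1 (0.95 ± 0.32, adjusted p = 0.071) and MYOM2 (0.82 ± 0.33, adjusted p = 0.118) and TPM2, which encodes beta-tropomyosin (0.60 ± 0.27, adjusted p = 0.168). Of 7 cardiac and embryonic paralogues 3 were tested and 0 passed (1 had an unadjusted p under 0.05). The tested ones were the ID listed as MYH8 (1.48 ± 0.52), MYH3 (0.88 ± 0.45) and TNNT2 (2.25 ± 1.07), whose mean in fibre1 rests on pig 12. The ID listed as MYH8 had 8132 to 76964 CPM in fibre1 and 9450 to 17415 CPM in fibre2B. It may hold reads of related myosin genes, and the fast myosin genes MYH1, MYH2 and MYH4 had no ID. Of 24 regulators of slow-fibre genes 19 were tested, 3 were called as higher in fibre1 and 0 as lower, with a median of 0.24, beside 4.38%, 4.63% and 0.0073 over all genes tested. The 3 were SRF, a transcription factor of sarcomere genes (80.2 ± 16.5 CPM in fibre1 and 34.4 ± 3.42 CPM in fibre2B, log2 fold change 1.22 ± 0.17, adjusted p = 0.013), MEF2C (0.88 ± 0.22, adjusted p = 0.030) and VGLL2 (0.96 ± 0.27, adjusted p = 0.045). Of the 19, 12 had values above 0 and the rest below 0. The largest change in size among the 19 was below 0, that of RCAN1 (-1.27 ± 0.40, edgeR adjusted p = 0.063). All calls in these lists were lost without fibre2B pig 14, where edgeR called 0 genes of all those tested.

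Other cell types were followed through their marker genes. Over all genes tested 4.63% were called as lower in fibre1 and 4.38% as higher. Fibroblast markers had lower levels in fibre1, with 2 of 5 tested called (DCN and LUM) and a summed level of 472 to 976 CPM in fibre1 and 745 to 1437 CPM in fibre2B. Red blood cell markers had 1 of 3 called as lower in fibre1 (HBB) and a summed level of 137 to 468 CPM in fibre1 and 423 to 955 CPM in fibre2B. Of the satellite cell markers 1 of 4 (VCAM1) was called as lower in fibre1, with sums of 25.6 to 37.1 CPM in fibre1 and 32.6 to 55.3 CPM in fibre2B. CDH15 had a value above 0 (19.6 ± 7.05 CPM in fibre1 and 17.5 ± 4.75 CPM in fibre2B, log2 fold change 0.16 ± 0.28). CALCR (-1.45 ± 0.58) and MYF5 (-0.28 ± 0.50) had values below 0 and were not called. Of the adipocyte markers 1 of 3 (CFD) was called as lower in fibre1, while PLIN1 (log2 fold change 0.14 ± 0.61) and CIDEC (0.35 ± 0.42) had values above 0. The adipocyte sum was 105 to 177 CPM in fibre1 and 156 to 275 CPM in fibre2B, nearly all of it CFD (132.6 ± 23.8 CPM in fibre1, against 212 ± 48.4 CPM in fibre2B). For endothelium, smooth muscle and pericytes, immune cells, and nerve and Schwann cells 0 of the 4, 5, 3 and 1 tested markers were called. Skeletal muscle markers summed to 92422 to 191118 CPM in fibre1 and 80087 to 110695 CPM in fibre2B. The part of these markers in the differences of the 7 genes was not tested.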

How the data were processed

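Samples of longissimus lumborum were stored in RNAlater and libraries were made with the TruSeq kit from 300 ng of total RNA, per the labels' protocols. The deposited values are expected counts (RSEM-type estimated counts per gene and isoform, deposited without decimals and not normalized), and rounding them changed nothing. The submitters' processing notes list the build Sscrofa10.2 and, without saying what each did, STAR, RSEM, DESeq2, edgeR, FastQC and CASAVA 1.8.2. The design text gives 5 technical repetitions, and the tables hold 1 column per pig. Pigs were grouped by sample title, and columns joined by pig number. Replicates are animals. There were 0 columns of other samples.

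An ID table gave symbols to 11804 rows, while the unnamed rows took 20.7% of the counts. No sequence or position of the files' build was used here. Isoforms were joined to a gene where a run of rows summed to its counts in all 11 pigs, a join inferred from the values.

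The gene and isoform tests used edgeR 4.0.16 under R 4.3.3 (TMM factors of 0.718 to 1.19, filterByExpr, quasi-likelihood F test on group, Benjamini-Hochberg adjusted p of 0.05). Each log2 fold change is fibre1 minus fibre2B, and its SE is its size over the root of F. Log2 CPM used a prior count of 2. Shares and single values were tested by two-sided exact permutation over 330 splits, and correlations by 100000 permutations, or exactly with under 10 pigs. Depth was 14832736 to 36374829 counts per pig. Alternatives used DESeq2 1.42.0, limma 3.58.1 and sva 3.50.0, and the pipeline was tested on simulated data. The members and lists were chosen with earlier results of these data known. Named were the 7 genes, the fast partners with an ID, up to 3 genes with the smallest p per sarcomere and regulator list, called genes of every list, the 8 most alike genes and the ID listed as MYH6. Cell-type lists other than adipocytes and satellite cells are mostly given by the number called, sums or both, short of the rule's 3 genes per list. TNNT2, ACTC1, MYH3 and MYBPH by pig, MYF5, ANKRD1, RCAN1, NPPB, BCKDHB, NNT, NDUFS1 and PDHX were named after their values were seen.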

Additional observations from a re-analysis of the deposited data

Results flagged for a closer look

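A pig lay far from the others of its group in 9 of 22 sets of values examined, 1 set for each group and each gene or share. Far refers to the gap to the next pig relative to the range of the set. Chance flags about 1 in 20 sets if the values are normally distributed. The rule was applied to CPM and shares without logs, so the rate for these sets is not known. The sets are not independent because the same pigs recur. Fibre1 pig 1 was far above the other 6 fibre1 pigs for TNNT1 (8674 CPM, next pig 3408), TNNI1 (5998 CPM, next 1944), TNNC1 (8130 CPM, next 3132), MYL3 (2714 CPM, next 1173) and MYBPC1 (2036 CPM, next 1319). It was also far above them for the share of TNNC1 in TNNC1 plus TNNC2 (20.1%, next 7.82%) and of MYL3 in MYL3 plus MYL1 (14.98%, next 4.73%). Fibre2B pig 10 was far above the other 3 fibre2B pigs for ANKRD2 (50.9 CPM, next 37.4) and CSRP3 (316 CPM, next 48.4).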

How the results depend on the processing

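The 7 log2 fold changes stayed above 0 in 189 of 189 refits, and 5 of these passed an adjusted p of 0.05 where the value with all pigs and TMM scaling had not. The number of the 7 genes called was 1 with DESeq2, 2 with 1 surrogate variable and 0 to 1 when single pigs were left out, against 0 of 7. The count of all genes called was 1021 and ranged from 0 (without fibre2B pig 14) to 1548 (without fibre1 pig 12) over single pigs left out. It was 157 with library totals only (53 higher in fibre1 and 104 higher in fibre2B, against 496 and 525), 1740 with DESeq2, 1748 with limma-voom and quality weights, 1628 with 1 surrogate variable, 460 with the share of abundant genes as a covariate, 28 without fibre1 pigs 5 and 6, and 0 without fibre1 pig 1 and fibre2B pig 14, the last chosen after seeing the data. At an unadjusted p under 0.05 edgeR had 2436 genes without fibre2B pig 14 and 2207 without both pigs, and DESeq2 without pig 14 called 776. Library totals moved the median of all genes to -0.19, against 0.0073. The cause of these changes was not tested. Isoforms of the 7 genes called were 0 to 1 over single pigs left out. Differences in share reversed without fibre1 pig 1 for TNNC1 (-0.0062 points) and for MYBPC1 (-0.81), and for MYBPC1 also without fibre2B pig 11 (-0.081) or 14 (-0.060). Over single pigs left out the highest were 3.40 for TNNC1 and 4.66 for MYBPC1, and MYL3 ran from 1.15 to 3.17. Without fibre1 pigs 5 and 6 the differences were 3.92 for TNNC1, 3.44 for MYBPC1 and 3.74 for MYL3. The number of shares that passed was 0 in these settings and on log2 ratios. The correlation of MYBPC1 and ANKRD2 was -0.089 on deviations from the group means. Of 21 pairs 11 to 16 passed over single pigs left out, against 13. The genes most alike shared 4 of 8 on deviations from the group means. For ANKRD2 the exact permutation p was 0.161, where edgeR's unadjusted p was 0.029. No paired analysis was possible because the groups share no replicate number. Depth limits were small for these genes, whose lowest count in any pig was 294, and the number of pigs limits the precision.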

Other observations

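On deviations from the group means, the 4 genes that entered the 8 most like the mean of the 7 genes were BCKDHB, a subunit of the branched-chain keto acid dehydrogenase (r = 0.97), NNT, the mitochondrial transhydrogenase (0.96), NDUFS1, a subunit of respiratory complex I (0.90), and PDHX, a component of the pyruvate dehydrogenase complex (0.90). None of these 4 differed between the groups past an edgeR adjusted p of 0.05, where 9.01% of all genes did. BCKDHB averaged 6.52 ± 1.15 CPM in fibre1, against 8.88 ± 1.94 CPM in fibre2B (log2 fold change -0.44 ± 0.17, adjusted p = 0.112), and its r with the mean of the 7 genes without centring was 0.20. NDUFS1 averaged 126.3 ± 32.2 CPM in fibre1, against 126.6 ± 39.0 CPM in fibre2B (log2 fold change -0.0033 ± 0.22, adjusted p = 0.994).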
